A study of Mus musculus with 8 samples.

Results

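The antisense-Rtl1 miRNAs are the mature products of 5 hairpins, miR-431, miR-433, miR-127, miR-434 and miR-136, which lie head to tail in the imprinted Dlk1-Dio3 locus of mouse chromosome 12. They were chosen by name and position, as both arms (5p and 3p) of each hairpin, and all 10 were present among the 422 miRNAs counted. Small RNA had been sequenced from the hippocampus of 12-week-old male mice of 2 inbred strains, BTBR T+ Itpr3tf/J (BTBR, 4 mice) and C57BL/6J (B6, 4 mice). BTBR is used as a model of idiopathic autism, the sources state no treatment, and each library came from 1 mouse. The strains differ throughout their genomes, so that a strain difference cannot be tied to 1 allele. The study asked which hippocampal miRNAs differ between the strains, and here the question is put to the antisense-Rtl1 miRNAs alone.

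Imprinted genes are read from the chromosome of only one parent. In the Dlk1-Dio3 locus the protein-coding genes, among them Rtl1, are expressed from the paternal chromosome, whereas the long non-coding RNAs and the miRNAs processed from them are expressed from the maternal chromosome. Rtl1 descends from a retrotransposon and is best known for its role in the placenta. The antisense-Rtl1 transcript runs opposite its coding sequence, so that the miRNAs cut from it match the Rtl1 mRNA base for base and can direct its cleavage, in contrast to the partial pairing through which animal miRNAs usually repress their targets. A hairpin yields a duplex of which 1 strand is usually kept by Argonaute and the other is mostly degraded. The locus is strongly expressed in brain. Reads from 1 inbred strain do not separate the parental chromosomes, so imprinting itself was not measured.

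The mature sequences are shown because the seed (bases 2 to 8, in capitals) fixes which partly paired targets a miRNA can have. All 10 were found in RefSeq (GRCm38.p6), on the plus strand of chromosome 12, and they are listed in the order of the genome.
mmu-miR-431-5p: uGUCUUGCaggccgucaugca
mmu-miR-431-3p: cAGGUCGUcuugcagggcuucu
mmu-miR-433-5p: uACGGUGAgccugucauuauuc
mmu-miR-433-3p: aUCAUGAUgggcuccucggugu
mmu-miR-127-5p: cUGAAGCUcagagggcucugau
mmu-miR-127-3p: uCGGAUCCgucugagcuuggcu
mmu-miR-434-5p: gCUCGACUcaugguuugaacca
mmu-miR-434-3p: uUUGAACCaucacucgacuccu
mmu-miR-136-5p: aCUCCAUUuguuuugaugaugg
mmu-miR-136-3p: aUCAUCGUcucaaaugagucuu
The seeds were 10 different ones, and 0 other measured miRNAs carried any of them, among the 367 of 422 with a RefSeq sequence. The antisense-Rtl1 miRNAs are therefore a group by position and not a seed family. Each mature sequence occurred in 1 RefSeq hairpin only, so none of the 10 shares its sequence with a second annotated hairpin. The rest of the genome was not searched. The miR-136 arms were the poorest in G and C (36.4% each), against 45.5% to 59.1% for the other eight.

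The hairpins lie at chr12:109590447-109590537 (miR-431), chr12:109591715-109591838 (miR-433), chr12:109592846-109592915 (miR-127), chr12:109594506-109594599 (miR-434) and chr12:109595327-109595388 (miR-136), all on the plus strand of GRCm38. They span 4942 bases, with gaps of 727 to 1590 bases between neighbours. On the minus strand the same stretch belongs to the gene Rtl1 (chr12:109589193-109600330, GENCODE M21). Its coding sequence of 5232 nt lies at chr12:109590172-109595403, and all 10 miRNAs lie opposite that coding sequence, none opposite an untranslated region. Every one of the 10 had exactly 1 perfect complement in the Rtl1 transcript. Along Rtl1 the order is reversed. The complement of miR-136-3p began at nt 17 of the coding sequence and that of miR-431-5p at nt 4925. The Rtl1 sites of the 3p arms are given as DNA on the Rtl1 strand, with the bases opposite the seed in capitals, because this full-length pairing is what sets these miRNAs apart from most.
Site of miR-136-3p: aagactcatttgagACGATGAt
Site of miR-434-3p: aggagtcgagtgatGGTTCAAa
Site of miR-127-3p: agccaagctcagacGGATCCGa
Site of miR-433-3p: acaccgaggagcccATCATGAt
Site of miR-431-3p: agaagccctgcaagACGACCTg
Rtl1 mRNA was not measured in these small RNA libraries, and a perfect complement is a description of the sequence, not a measured cleavage.

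Within 2 hairpins the arms resembled each other. The miR-431 arms shared an unbroken run of 10 bases, GUCUUGCAGG, and the miR-434 arms one of 9, UUUGAACCA. The first holds the whole seed of miR-431-5p and the second that of miR-434-3p. The longest run shared by the arms of the other 3 hairpins was 4 or 5 bases. Runs of 9 or more occurred in 3 of 88 hairpins with both arm sequences (3.41%), and the median over those hairpins was 4.

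The counts on miRNAs summed to between 2247482 and 7904990 per library, a 3.52-fold range, and no libraries of a strain agreed within counting noise (chi-square of 81.7 to 786 per degree of freedom for each pair). Levels below are CPM (counts scaled to a common library total) after normalization by the trimmed mean of M-values (TMM), and values are listed for replicates 1, 2, 3 and 4 of each strain. BTBR replicate 2 was the shallowest library and stood apart from the others of its strain, with a standard deviation over all miRNAs of 0.726 for its log2 deviations from the BTBR mean, against 0.366 to 0.555 in the other 7 libraries. Several results that rest on it are therefore given with and without it. The libraries held the miRNAs of brain tissue, with summed neuronal and brain markers (miR-124-3p, miR-9-5p, miR-128-3p and miR-138-5p) of 48542 to 77485 CPM in B6 and 57022 to 67057 CPM in BTBR. In bulk tissue, fewer cells of a type and less RNA per cell cannot be told apart.

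The 10 antisense-Rtl1 miRNAs were all detected in every library, at levels that differed by orders of magnitude between arms and little between strains. miR-127-3p and miR-434-3p supplied 96.4% to 98.3% of the reads of the group, and the group as a whole supplied 2.29% to 4.48% of all counts on miRNAs. Between BTBR and B6, 0 of the 10 passed an adjusted p of 0.1 by the quasi-likelihood test of edgeR (Benjamini-Hochberg over all 422 miRNAs), whereas 7 of the 422 did (1.66%). By the same test 0 of the 10 had an unadjusted p under 0.05, against 46 of all 422, and 0 of the 10 were also called by DESeq2 (21 of all 422) and by limma-voom (6 of all 422). The levels of the strains overlapped for all 10 (over all miRNAs, 28 of 422, or 6.64%, did not overlap).

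**Figure D1:**
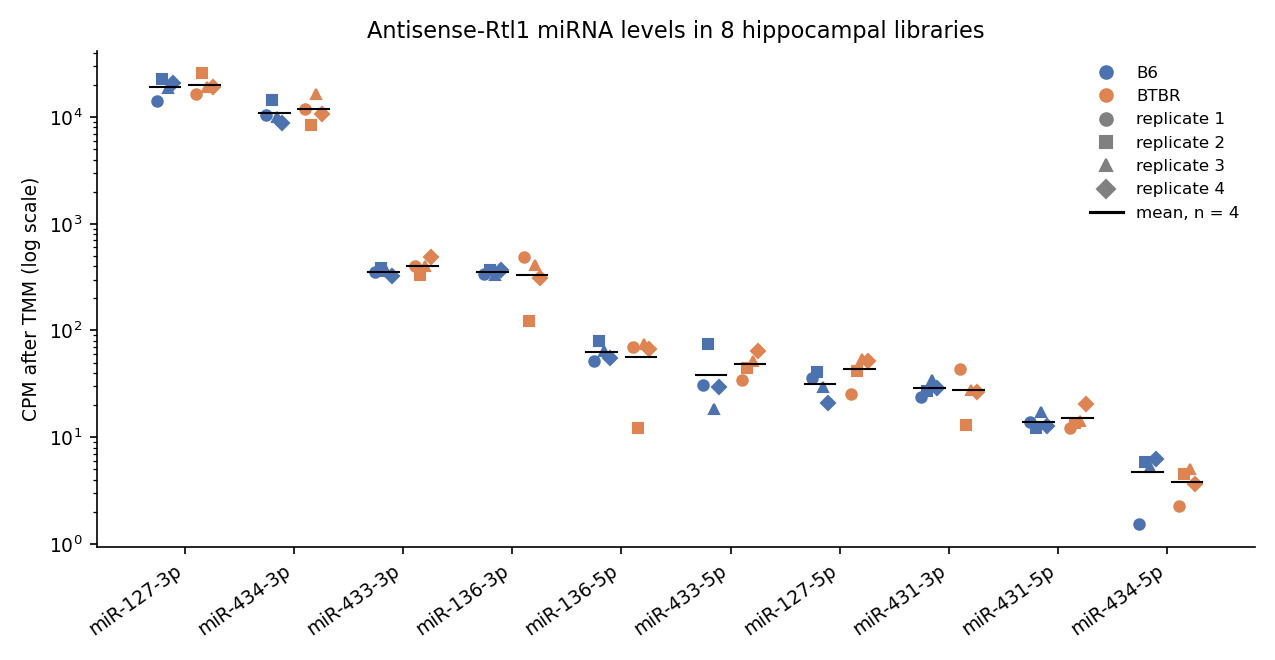
Levels of the 10 antisense-Rtl1 miRNAs in CPM after TMM, on a log scale, with 1 point per library (4 B6 and 4 BTBR mice) and a bar at each strain's mean. Points of the strains overlap for all 10 miRNAs, and BTBR replicate 2 lies low for both arms of miR-136.

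The abundant members were 3p arms. miR-127-3p, the most abundant, is known for silencing Rtl1 in the placenta. It stood at 14275, 22596, 18717 and 20681 CPM in the B6 libraries and at 16466, 25709, 19282 and 19252 CPM in the BTBR libraries. Every BTBR value but that of replicate 2 lay within the B6 range. The mean was 19067 ± 3566 CPM in B6 and 20177 ± 3917 CPM in BTBR (SD, n = 4 each), a log2 fold change (BTBR relative to B6) of 0.08 (SE 0.20, 95% interval -0.36 to 0.52, edgeR adjusted p = 0.911). Without BTBR replicate 2 the log2 fold change was -0.09. It ranked 8th to 14th among the 422 miRNAs, depending on the library.

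miR-434-3p had 10349, 14443, 9906 and 8766 CPM in B6 and 12005, 8433, 16299 and 10685 CPM in BTBR. The BTBR libraries held both the lowest value (replicate 2) and the highest (replicate 3). The means were 10866 ± 2476 and 11855 ± 3309 CPM (SD, n = 4 each), with a log2 fold change of 0.13 (SE 0.23, 95% interval -0.38 to 0.64, edgeR adjusted p = 0.881). The log2 fold change was 0.24 without BTBR replicate 2, -0.067 without BTBR replicate 3 and 0.32 without B6 replicate 2. miR-434-3p ranked 13th to 18th.

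miR-433-3p, which has been reported to target the growth factor gene Fgf20, had 350.2, 387, 358 and 323 CPM in B6 and 399, 333, 400.0 and 489 CPM in BTBR. Although 3 of 4 BTBR values lay above every B6 value, replicate 2 did not, and the ranges overlapped through it alone. The means were 355 ± 26.2 and 405 ± 64.2 CPM (SD, n = 4 each), with a log2 fold change of 0.19 (SE 0.19, 95% interval -0.22 to 0.61, edgeR adjusted p = 0.731). The log2 fold change was 0.25 without BTBR replicate 2 (edgeR adjusted p = 0.533) and 0.038 without BTBR replicate 4. miR-433-3p was the steadiest of the 10 miRNAs, with a standard deviation of log2(CPM + 0.5) within strains of 0.177. Only 23 of the 422 miRNAs fell below that.

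miR-136-3p had 339, 372, 328 and 372 CPM in B6 and 488, 122, 415 and 313 CPM in BTBR. The B6 libraries were close together, whereas BTBR spanned both the lowest and the highest value. The means were 353 ± 22.9 and 335 ± 159 CPM (SD, n = 4 each), with a log2 fold change of -0.07 (SE 0.34, 95% interval -0.81 to 0.67, edgeR adjusted p = 0.957). Without BTBR replicate 2 it was 0.17.

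miR-431-3p, on the least abundant hairpin, had 23.8, 27.3, 34.7 and 28.8 CPM in B6 and 43.2, 13.0, 27.6 and 26.6 CPM in BTBR. BTBR replicate 1 was the highest library and BTBR replicate 2 the lowest, with the other six in between. The means were 28.6 ± 4.55 and 27.6 ± 12.3 CPM (SD, n = 4 each), with a log2 fold change of -0.04 (SE 0.34, 95% interval -0.78 to 0.70, edgeR adjusted p = 0.974), and of 0.15 without BTBR replicate 2.

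Of the 5p arms, that of miR-136 was the most abundant. miR-136-5p had 51.8, 79.8, 64.0 and 55.5 CPM in B6 and 70.3, 12.1, 75.4 and 66.4 CPM in BTBR. Without replicate 2, the BTBR values lay within the B6 range. The low value rested on 27 reads, or 12.01 CPM before TMM (95% Clopper-Pearson interval 7.92 to 17.5, for counting error only), and the cause of the low value was not tested. The means were 62.8 ± 12.4 and 56.1 ± 29.5 CPM (SD, n = 4 each), with a log2 fold change of -0.15 (SE 0.43, 95% interval -1.10 to 0.79, edgeR adjusted p = 0.928), and of 0.14 without BTBR replicate 2.

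miR-433-5p had 30.7, 74.4, 18.4 and 29.4 CPM in B6 and 34.1, 44.9, 51.6 and 64.0 CPM in BTBR. All 4 BTBR libraries lay above 3 of the B6 libraries, but B6 replicate 2 was the highest of all. The means were 38.2 ± 24.8 and 48.7 ± 12.5 CPM (SD, n = 4 each), with a log2 fold change of 0.35 (SE 0.40, 95% interval -0.53 to 1.22, edgeR adjusted p = 0.787). The value moved widely with single libraries. It was 0.93 without B6 replicate 2 (edgeR unadjusted p = 0.0140, adjusted p = 0.185), 0.20 and 0.21 without B6 replicates 1 and 4, 0.13 without BTBR replicate 4 and 0.076 without B6 replicate 3.

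miR-127-5p, the partner of the most abundant arm, had only 35.7, 40.8, 29.5 and 20.9 CPM in B6 and 25.5, 41.3, 54.6 and 51.5 CPM in BTBR. In BTBR, 3 libraries lay above every B6 library and replicate 1 did not. The means were 31.7 ± 8.58 and 43.2 ± 13.1 CPM (SD, n = 4 each), with a log2 fold change of 0.45 (SE 0.31, 95% interval -0.23 to 1.12, edgeR adjusted p = 0.651).

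miR-431-5p, studied for its part in axon regrowth after nerve injury, had 13.8, 12.2, 17.2 and 12.8 CPM in B6 and 12.1, 13.5, 14.3 and 20.7 CPM in BTBR. Only BTBR replicate 4 rose above the B6 range. The means were 13.998 ± 2.206 and 15.1 ± 3.81 CPM (SD, n = 4 each), with a log2 fold change of 0.12 (SE 0.30, 95% interval -0.53 to 0.77, edgeR adjusted p = 0.911).

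miR-434-5p was the scarcest, with 1.54, 5.86, 5.25 and 6.29 CPM in B6 and 2.26, 4.49, 5.01 and 3.61 CPM in BTBR. The low B6 value was that of replicate 1, and the other three B6 libraries lay above all 4 BTBR libraries. These levels rest on 8 to 35 reads per library. Before TMM, the 95% Clopper-Pearson interval of B6 replicate 1, for counting error only, was 0.596 to 2.72 CPM. It lay below those of the other B6 libraries, whose lower ends were 2.99 to 4.80 CPM. The means were 4.73 ± 2.17 and 3.84 ± 1.202 CPM (SD, n = 4 each), with a log2 fold change of -0.32 (SE 0.50, 95% interval -1.42 to 0.79, edgeR adjusted p = 0.841).

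**Figure D2:**
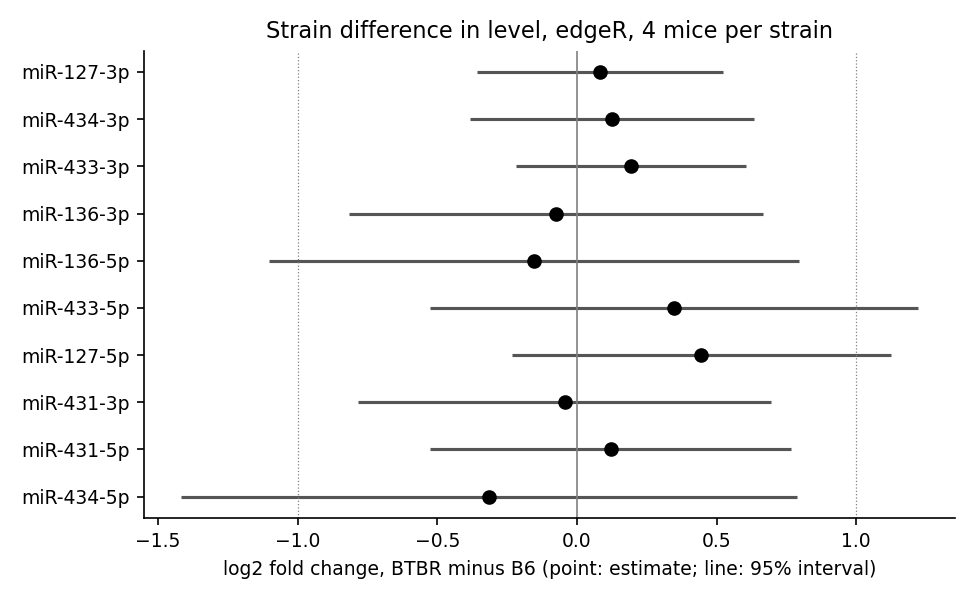
Log2 fold change of each antisense-Rtl1 miRNA, BTBR relative to B6, from edgeR with 4 mice per strain. Points are estimates and horizontal lines 95% intervals, with a solid grey line at 0 and dotted lines at ±1. All 10 intervals hold 0, and the widest is that of miR-434-5p, from -1.42 to 0.79.

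Over the group, the log2 fold change was above 0 for 6 miRNAs and below 0 for 4 (8 were above 0 when libraries were scaled by size only, which raised the median of all miRNAs by 0.13). Its median was 0.10, against 0.02 over all 422 miRNAs, and its median size without sign was 0.14, against 0.28. Adjusted p-values (edgeR, Benjamini-Hochberg) ran from 0.651 to 0.974, and two-sided exact permutation tests over the 70 assignments of mice to strains gave p-values from 0.229 to 0.857, where the smallest that 4 against 4 mice allow is 0.0286. The 95% intervals bound what these data leave possible. For 6 of the 10 the interval lay within a log2 fold change of ±1, as it did for 190 of all 422 miRNAs (45.0%). For miR-127-5p, miR-433-5p, miR-434-5p and miR-136-5p it reached beyond 1 in one direction, so that a 2-fold difference in that direction lies within the interval.

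The order of the levels was only partly resolved. By the mean over the 8 libraries it ran from miR-127-3p through miR-434-3p, miR-433-3p, miR-136-3p, miR-136-5p, miR-433-5p, miR-127-5p, miR-431-3p and miR-431-5p to miR-434-5p, and the ends differed 4577-fold. miR-127-3p exceeded miR-434-3p in 8 of 8 libraries, by 1.18 to 3.05 times, although their ranges overlapped across libraries. Below them was a wide step, with miR-434-3p at 21.8 to 40.7 times the CPM of miR-433-3p in every library. Another step lay between the miR-136 arms (4.67 to 10.1 times) and a further one between miR-431-5p and miR-434-5p (at least 2.04 times), each in 8 of 8 libraries and without overlap. The neighbours miR-433-3p and miR-136-3p, miR-433-5p and miR-127-5p, and miR-127-5p and miR-431-3p kept their order in only 5 of 8 libraries each, so their levels were not separated by more than the spread between mice. CPM of different miRNAs also carry the preferences of adapter ligation, which were not measured here.

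**Figure D3:**
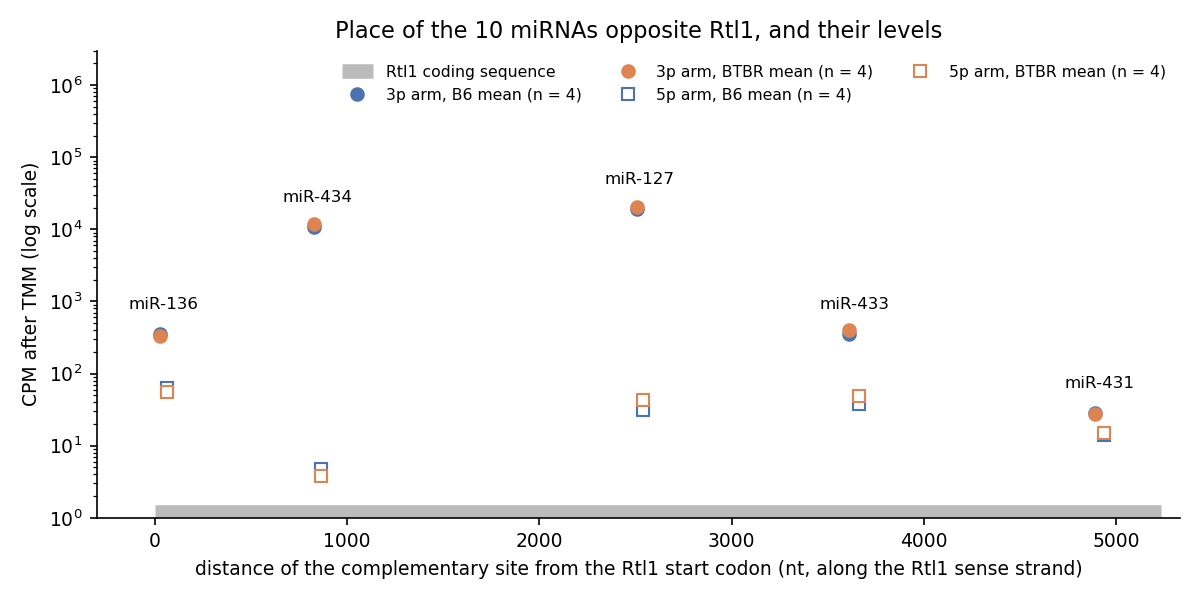
Mean CPM after TMM (log scale, n = 4 per strain) of each miRNA against the distance of its complementary site from the Rtl1 start codon in nt, with the Rtl1 coding sequence as a grey bar. The 3p arms of miR-434 and miR-127 lie far above all other arms, and 5p arms lie below 3p arms in each hairpin.

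The order of levels did not follow the order along the transcript. The hairpins with the highest 3p arms, miR-127 and miR-434, are neighbours, 1590 bases apart, whereas their 5p arms ranked 198th to 246th (miR-127-5p) and 336th to 410th (miR-434-5p) among the 422 miRNAs.

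Arm ratios need no normalization between libraries, since both arms are counted in the same library. In miR-434 there were 6741, 2467, 1888 and 1393 reads of the 3p arm per 5p read in B6 and 5309, 1879, 3254 and 2960 in BTBR. Of the 99 hairpins with both arms counted, only 4 were more lopsided than miR-434 by the size of the mean log2 ratio. In miR-127 the ratio was 399.9, 554, 635 and 989.7 in B6 and 646, 622, 353 and 374 in BTBR, and 11 of the 99 hairpins were more lopsided. Both hairpins thus gave nearly all their reads from the 3p arm in both strains.

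The other three hairpins were more balanced. In miR-433 the 3p arm had 11.4, 5.20, 19.5 and 10.98 reads per 5p read in B6 and 11.7, 7.41, 7.75 and 7.64 in BTBR, with the BTBR values inside the B6 range. In miR-136 the ratio was 6.53, 4.67, 5.12 and 6.70 in B6 and 6.94, 10.1, 5.50 and 4.72 in BTBR, where replicate 2 was the highest of the 8. In miR-431 it was 1.72, 2.23, 2.02 and 2.25 in B6 and 3.56, 0.967, 1.93 and 1.28 in BTBR. The miR-431 arms were nearest to balance, and in BTBR replicate 2 the 5p arm had the more reads, 30 against 29 for the 3p arm. In the other four hairpins the 3p arm led in all 8 libraries, as in 42 of the 99 hairpins (42.4%), while 44 of the 99 had the 5p arm ahead in every library.

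**Figure D4:**
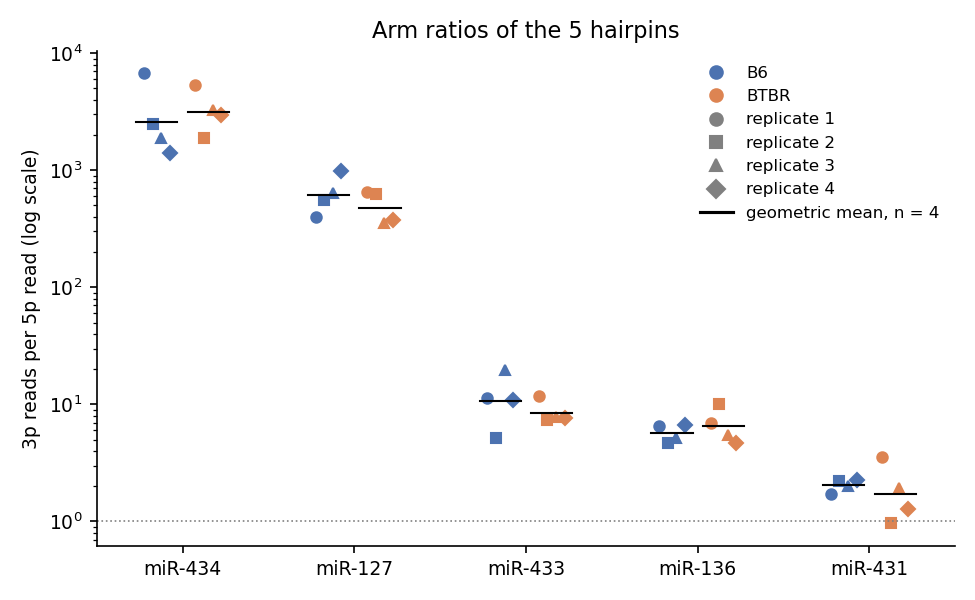
Reads of the 3p arm per read of the 5p arm (log scale) in each of the 4 B6 and 4 BTBR libraries for the 5 hairpins, with a bar at each strain's geometric mean and a dotted line at 1. miR-434 and miR-127 lie highest, between 353 and 6741, and miR-431 lies lowest, between 0.967 and 3.56, with the strains overlapping in all 5.

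The strains did not differ detectably in arm choice. With limma on the log2 ratio, adjusted by Benjamini-Hochberg over the 99 hairpins, 0 of the 5 hairpins passed 0.1 and 0 of all 99 did (0%), with 5 of the 99, none of them antisense-Rtl1, at an unadjusted p under 0.05. The log2 ratios overlapped between strains in all 5, whereas 2 of the 99 hairpins (2.02%) did not overlap. The difference in log2 ratio (BTBR minus B6, limma) was -0.35 for miR-127 (SE 0.35, 95% interval -1.10 to 0.41, adjusted p = 0.907). It was -0.33 for miR-433 (SE 0.38, 95% interval -1.14 to 0.49, limma adjusted p = 0.907) and -0.26 for miR-431 (SE 0.42, 95% interval -1.16 to 0.64, limma adjusted p = 0.924). For miR-434 it was 0.28 (SE 0.59, 95% interval -0.99 to 1.54, limma adjusted p = 0.924) and for miR-136 it was 0.19 (SE 0.30, 95% interval -0.45 to 0.84, limma adjusted p = 0.924). Without BTBR replicate 2 the differences of miR-136 and miR-431 changed sign, to -0.0096 and 0.015. That of miR-434 did so without B6 replicate 4, to -0.014. Two-sided exact permutation tests over the 70 assignments gave p-values of 0.429 to 0.600. The ratio of miR-136 was the steadiest of the 5 between mice, with a standard deviation within strains of 0.377 on the log2 scale, and that of miR-434 the least steady, at 0.805, against a median of 0.617 over the 99 hairpins.

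Since all 5 hairpins come from 1 locus, it was also examined whether their products varied together between mice of a strain. For each miRNA the strain mean of log2(CPM + 0.5) was subtracted, which leaves 8 deviations of which 6 are free. Over the 45 pairs of antisense-Rtl1 miRNAs, Pearson's r ran from -0.604 to 0.944 with a median of 0.135 and was above 0 in 29 pairs (64.4%). Over all 88831 pairs of the 422 miRNAs the median was -0.00597, and 49.6% were above 0. Without BTBR replicate 2 the medians were 0.179 (30 pairs above 0) and -0.00497. These correlations share libraries and normalization and are given as descriptions.

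Among the 5 hairpins, the arms of miR-136 alone passed 0.1 after adjustment. They had r = 0.944 over the 8 libraries (exact permutation p = 0.00188, adjusted p = 0.0456 over the 99 hairpins) and rho = 0.810 (exact permutation p = 0.0218, adjusted p = 0.166). Over all hairpins, 14 of 99 (14.1%) passed 0.1 by r, with a median r of 0.117. The relation rested on BTBR replicate 2, where both arms were low. Without the 2 libraries farthest from the median of the 3p arm, BTBR replicates 1 and 2, r was 0.738 (exact permutation p = 0.0556, adjusted p = 0.452). At that setting of 6 libraries 0 of the 99 hairpins passed, and deviations were kept from strain means that still held the left-out libraries. Without BTBR replicate 2 alone, with the BTBR mean taken anew, r was 0.255 (exact permutation p = 0.589, adjusted p = 0.845), where 8 of the 99 passed. The 2 values are therefore not alike in measure. For the other hairpins r was 0.446 in miR-433 (exact permutation p = 0.255), 0.135 in miR-127 (exact permutation p = 0.754), 0.0810 in miR-434 (exact permutation p = 0.876) and 0.0393 in miR-431 (exact permutation p = 0.912). Scaled by library size only, r was higher in all 5. It was 0.960 in miR-136 (exact permutation p = 0.00119, adjusted p = 0.0236) and 0.779 in miR-433 (exact permutation p = 0.0205, adjusted p = 0.127). In miR-127 it was 0.478, in miR-434 0.327 and in miR-431 0.170. The median r over all 99 hairpins was higher too at that scaling, at 0.326 against 0.117, and 12 of the 99 (12.1%) passed 0.1.

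Across hairpins, miR-431-3p varied most closely with miR-136-3p (r = 0.903 over 8 libraries) and with miR-136-5p (r = 0.850). Without BTBR replicate 2 these values were 0.573 and 0.165. miR-127-3p and miR-434-5p had r = 0.828, and 0.934 without BTBR replicate 2, although the latter miRNA had few reads. miR-127-3p and miR-136-3p went opposite ways (r = -0.604), but without BTBR replicate 2 the value was -0.0390.

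**Figure D5:**
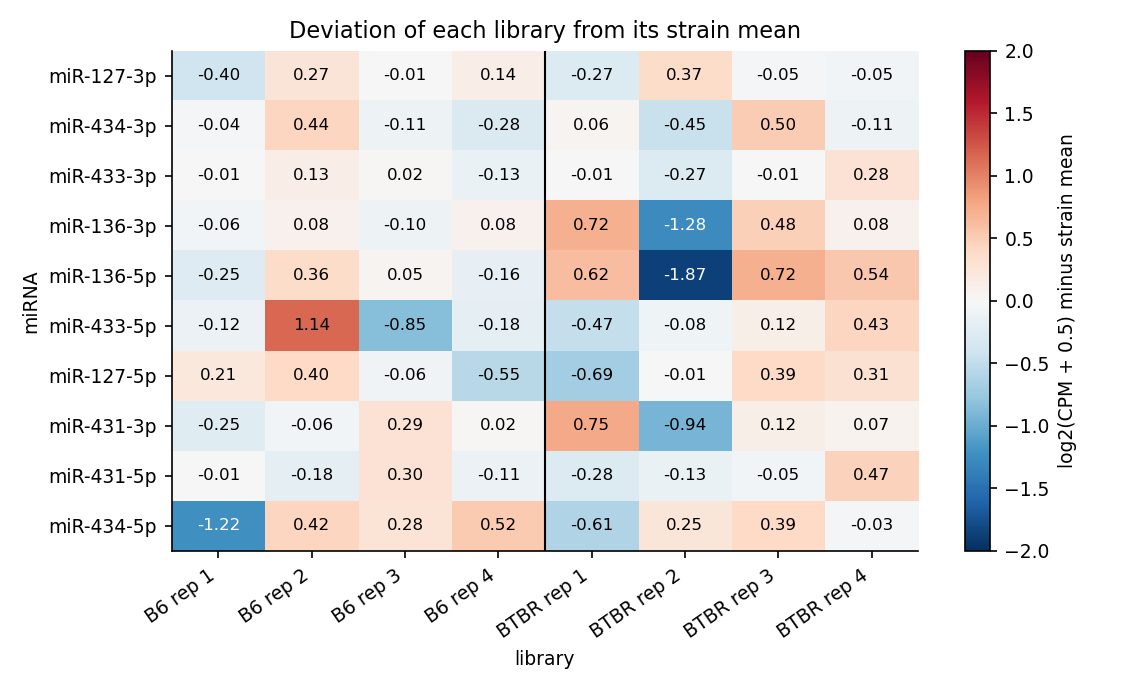
Deviation of each library's log2(CPM + 0.5) from its strain mean (colour) for the 10 antisense-Rtl1 miRNAs (rows) in the 4 B6 and 4 BTBR libraries (columns). BTBR replicate 2 is low for both arms of miR-136 and for miR-431-3p but not for miR-127-3p.

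BTBR replicate 2 did not lower the whole group. miR-136-5p lay 1.87 below the BTBR mean on the log2 scale (deviation -1.87, the 9th lowest of the 422 miRNAs in that library), followed by miR-136-3p at -1.28 and miR-431-3p at -0.94. The deviations of miR-434-3p and miR-433-3p were -0.45 and -0.27, whereas miR-127-3p was above the strain mean, at 0.37. In all, 2 of 10 were above their strain mean there (49.3% of all miRNAs), 1 of 10 in B6 replicate 1 (51.9%) and 8 of 10 in B6 replicate 2 (52.8%). In BTBR replicate 2 the summed red blood cell markers were 1371 CPM, the highest in BTBR (531 to 1371 CPM) but close to the 1364 CPM of BTBR replicate 3. The microglia and leukocyte markers of replicate 2 were 712 CPM (range in the strain 422 to 712 CPM). Its vessel markers were 6831 CPM (6831 to 10686 CPM), although miR-145a-5p was at its highest in BTBR there (301 CPM). BTBR replicate 2 was also the highest of its strain for the sum of choroid plexus markers (9621 CPM), of which miR-204-5p was 7739 CPM. Of the same list, miR-34c-5p (1586 CPM), miR-1298-5p, miR-1298-3p, miR-448-3p and miR-449a-5p were lowest in BTBR there, while miR-34b-5p and miR-448-5p were highest. Replicate 2 was the lowest BTBR library for the sums of neuronal and brain markers (57022 CPM) and muscle markers (786 CPM). Of the muscle markers, miR-1a-3p was lowest there (673 CPM) and miR-206-3p highest (84.8 CPM). Oligodendrocyte markers stood at 2842 CPM (2289 to 2922 CPM). The part of these markers in the low miR-136 values was not tested.

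The spread within strains, as the standard deviation of log2(CPM + 0.5), had a median of 0.486 over the 10, against 0.443 over all 422 miRNAs. It was smallest for miR-433-3p (0.177), miR-431-5p (0.274) and miR-127-3p (0.278), and largest for miR-136-5p (0.904). For miR-136-5p this was mostly the BTBR side, with 1.25 in BTBR and 0.273 in B6, and for miR-136-3p likewise 0.892 against 0.0941. In BTBR replicate 2 miR-136-5p and miR-136-3p stood at 12.1 and 122 CPM. The other BTBR libraries had 66.4 to 75.4 and 313 to 488 CPM.

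The miRNAs whose deviations most resembled the mean of the 10, over the 8 libraries, were miR-7689-3p (r = 0.944, and 0.893 without BTBR replicate 2), miR-133c (0.926 and 0.875), miR-879-5p (0.924 and 0.809), miR-384-5p (0.923 and 0.8288) and miR-186-5p (0.915 and 0.781). None of these 5 is on the lists of the Dlk1-Dio3 locus. Of the 20 most similar miRNAs, 9 were other miRNAs of the locus, which make up 56 of the 412 miRNAs outside the group (13.6%). The median r with the group's mean was 0.279 for the other locus miRNAs and -0.106 for the remaining miRNAs. These are descriptions over 8 libraries that share depth and normalization.

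The other miRNAs of the locus were read from the same fit, and their difference from the antisense-Rtl1 miRNAs was not tested. On either side of Rtl1 lie the long non-coding RNAs Meg3 (chr12:109541001-109571726) and Rian (chr12:109603940-109661716), and farther on Mirg (chr12:109729764-109749460), all on the plus strand. Of the miR-379/410 cluster, the largest group of miRNAs in the locus, 47 mature miRNAs were measured and 0 passed the threshold (edgeR, smallest adjusted p = 0.254), against 7 of all 422 (1.66%). Their log2 fold change was above 0 for 36 of 47 (over all miRNAs, 215 of 422), with a median of 0.17, and ran from -0.46 for miR-410-5p (edgeR adjusted p = 0.647) to 0.74 for miR-667-5p (edgeR adjusted p = 0.451). The strains did not overlap for 4 of the 47, against 28 of all 422 (6.64%) and 0 of the 10 antisense-Rtl1 miRNAs. Their summed level was 18129 to 20593 CPM in B6 and 18760 to 23734 CPM in BTBR.

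Of the remaining miRNAs of the locus, 9 were measured and 0 passed. Their median log2 fold change was 0.16, with 6 of 9 above 0, from -0.43 for miR-673-5p (edgeR adjusted p = 0.745) to 0.58 for miR-673-3p (edgeR adjusted p = 0.641), the arms of 1 hairpin. In BTBR replicate 2, 30 of the 47 cluster miRNAs lay below the BTBR mean (median deviation -0.24) and 3 of the 9 others did (median deviation 0.08).

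Markers of other cell types did differ between libraries. The choroid plexus markers, led by miR-204-5p, summed to 5258 to 40437 CPM in B6 and 5366 to 9621 CPM in BTBR, with 0 of 10 called and a median log2 fold change of -0.998. The high B6 sums were those of replicates 1 (40437 CPM) and 2 (16556 CPM), against 6465 and 5258 CPM in replicates 3 and 4. B6 replicate 1 was also the library with 1 of 10 antisense-Rtl1 miRNAs above the strain mean, and without it the log2 fold change of miR-127-3p was -0.11. The red blood cell markers, led by miR-486a-5p, summed to 303 to 853 CPM in B6 and 531 to 1371 CPM in BTBR, with 1 of 4 called (miR-451a, edgeR adjusted p = 0.0339) against 7 of all 422 (1.66%), a median log2 fold change of 1.25 and 4 of 4 above 0. Here miR-486a-5p and miR-486b-5p, which had identical counts in every library, were counted once. Oligodendrocyte markers, led by miR-219a-2-3p, summed to 2238 to 4256 CPM in B6 and 2289 to 2922 CPM in BTBR, vessel markers, led by miR-143-3p, to 8863 to 13365 and 6831 to 10686 CPM, and muscle markers, led by miR-1a-3p, to 594 to 983 and 786 to 1204 CPM. Of the microglia and leukocyte markers, led by miR-150-5p, 4 of 5 were counted, as miR-223-3p was not among the 422 miRNAs. They summed to 444 to 508 CPM in B6. The part of cell makeup in the levels of the antisense-Rtl1 miRNAs was not tested.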

How the data were processed

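The authors prepared libraries with the TruSeq Small RNA kit, sequenced them on a NextSeq500, checked reads with FastQC 0.11.2, and mapped them to GRCm38 with sRNAbench, which uses Bowtie. Reads lying within miRBase coordinates were assigned to a miRNA. The deposited values are counts for 422 miRNAs, rounded to whole numbers and not normalized, without molecular identifiers, and the lowest count anywhere in the table was 1 (0 columns were left unmapped). Of the 422, 4 pairs had identical counts in every library, with none of the 10 members among them. BTBR reads were mapped to a reference built from B6, and any effect of strain variants was not tested.

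Counts were normalized by TMM and compared by the quasi-likelihood test of edgeR 4.0.16 (R 4.3.3) without covariates, with Benjamini-Hochberg adjustment over 422 miRNAs and the threshold of 0.1 used in the study. Arm ratios, log2((3p + 0.5)/(5p + 0.5)), were compared by limma 3.58.1 over 99 hairpins. DESeq2 1.42.0 was an alternative, as were other scalings and filters, a replicate block and each library left out. Exact tests used scipy 1.17.1 under Python 3.11.15, and plots matplotlib 3.10.9. Scripts were tested on simulated data.

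The members, lists and tests were chosen with earlier results of these data known. Named are all 10 members, the 5 miRNAs most like their mean, the largest and smallest fold change in each locus list, and the most abundant marker of each list. miR-124-3p, miR-128-3p, miR-138-5p, miR-451a, miR-486b-5p and miR-223-3p are named beyond that rule, after their values were seen. So are miR-34c-5p, miR-34b-5p, miR-1298-5p, miR-1298-3p, miR-448-3p, miR-448-5p, miR-449a-5p, miR-206-3p and miR-145a-5p. The neuronal and brain markers were led by miR-9-5p.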

Additional observations from a re-analysis of the deposited data

Results flagged for a closer look

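In groups of 4 libraries, 3 values stood farther from the other three than Dixon's 95% critical value for the gap as a share of the group's range on the log2 scale (log2(CPM + 0.5) for levels, the log2 ratio for arms), out of 30 groups examined. Chance gives about 1 in 20 such groups. miR-136-5p in BTBR replicate 2 was 12.1 CPM, with a gap of 0.930 of the BTBR range on that scale and of 0.858 in CPM. The level of miR-434-5p in B6 replicate 1 was 1.54 CPM, from 8 reads, with a gap of 0.861 of the B6 range on the log2 scale and of 0.780 in CPM, where it does not pass, and the other B6 libraries had 5.25 to 6.29 CPM. The 3p to 5p ratio of miR-433 in BTBR replicate 1 was 11.7, with a gap of 0.896 of the BTBR range on the log2 scale and of 0.920 as a plain ratio, against 7.41 to 7.75 in the other BTBR libraries and within the B6 range of 5.20 to 19.5. Causes were not tested.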

How the results depend on the processing

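No antisense-Rtl1 miRNA passed the threshold under any of the alternatives run, where the smallest adjusted p was 0.185 (edgeR, miR-433-5p without B6 replicate 2). The count over all miRNAs was 7, and it was 4 when libraries were scaled by size only, 3 with the replicate block, 21 with DESeq2, 4 at a threshold of 0.05 and 3 to 13 with 1 library left out (13 without B6 replicate 2, 4 without BTBR replicate 1, and 3 without BTBR replicate 3 or 4). Of the 7, 5 were higher and 2 lower in BTBR, against 4 and 0 with scaling by size only 6 and 1 with upper-quartile scaling, 3 and 4 without B6 replicate 3 and 4 and 4 without B6 replicate 4. The median log2 fold change of the 10 ran from -0.03 to 0.16 with 1 library left out, below 0 without B6 replicate 1 or BTBR replicate 4. Same-numbered libraries did not deviate together (r from -0.151 to 0.0516), which cannot show whether equal numbers shared a batch, and the labels do not say. With the replicate block 0 of the 10 passed. Scaling by size only moved the median log2 fold change of all miRNAs by 0.13 and gave 0.11 for miR-431-3p and 0.083 for miR-136-3p, whose signs turned. With 1 library left out, the log2 fold change ran from -0.11 to 0.21 for miR-127-3p, -0.067 to 0.32 for miR-434-3p, -0.13 to 0.22 for miR-431-5p, -0.32 to 0.14 for miR-136-5p, -0.31 to 0.17 for miR-136-3p and -0.34 to 0.15 for miR-431-3p. Without a change of sign it ran from 0.038 to 0.26 for miR-433-3p, 0.076 to 0.93 for miR-433-5p, 0.26 to 0.63 for miR-127-5p and -0.67 to -0.12 for miR-434-5p. The sign of miR-127-3p turned without B6 replicate 1 or BTBR replicate 2, those of both miR-136 arms and miR-431-3p without BTBR replicate 2, that of miR-136-5p also without B6 replicate 2 and that of miR-431-3p also without B6 replicate 3, that of miR-434-3p without BTBR replicate 3 and that of miR-431-5p without BTBR replicate 4. The difference in arm ratio ran from -0.0096 to 0.35 for miR-136, -0.61 to 0.015 for miR-431, -0.014 to 0.72 for miR-434, -0.67 to -0.034 for miR-433 and -0.55 to -0.12 for miR-127, turning without BTBR replicate 2 for miR-136 and miR-431 and without B6 replicate 4 for miR-434, with 0 to 1 hairpins called (1 without B6 replicate 4). The arm correlation of miR-136 fell to 0.738 without the 2 farthest libraries and 0.255 without BTBR replicate 2, an alternative chosen after seeing the data. That of miR-431 was -0.310 without BTBR replicate 2, and that of miR-434 was -0.658 without the 2 farthest libraries. Only the values without BTBR replicate 2 had the strain mean taken anew, so values of the 2 settings are not alike in measure. The causes of these changes were not tested. With a mean of 50 reads required in the scarcer arm, 66 hairpins and 4 of the 5 antisense-Rtl1 hairpins remained, since miR-434-5p has too few reads.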
